A study of Mus musculus with 5 samples.

Results

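The sites described here are the ZFP24 binding sites that were listed in oligodendrocyte progenitor cells and again in the oligodendrocytes made from them. They were selected on position alone: a peak of the progenitor (OPC) list was a member where it shared at least 1 base with a peak of the oligodendrocyte (OLG) list. The rule gave 254 OPC peaks of 4643, which is 5.47%, and 254 OLG peaks of 1752, which is 14.5%, in 254 pairs with 1 peak from each list. No peak of either list was in more than 1 pair. These counts come from the rule and nothing was tested on them.

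ZFP24, called ZFP191 in the labels, was mapped by chromatin immunoprecipitation and sequencing (ChIP-seq) with an antibody against its human form, ZNF24. Progenitors came by immunopanning from brains of C57BL/6 mice at postnatal day 7, either wildtype or Zfp191-null. The OLG groups were such cells cultured for a further 5 days with 40 ng/ml triiodothyronine and no PDGF. The 5 libraries were 1 each of wildtype OPC, Zfp191-null OPC, wildtype OLG, Zfp191-null OLG and an input pooled from all 4 kinds of cells, which got no antibody. The labels tie 1 deposited peak list to the wildtype and null OPC libraries together and 1 to the OLG libraries together, and signal in null cells or input was not analysed here. The lists hold positions only, so a kept site is a place called in both lists, with no measure of how much ZFP24 was there, and expression of marker genes could not be checked.

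ZFP24 is a DNA-binding protein with zinc fingers at one end and a SCAN domain, through which such proteins pair with each other, at the other. Mice without it have oligodendrocytes that do not go on to make compact myelin, the membrane wrap that insulates axons. Progenitors divide and migrate, and on leaving the cell cycle they switch to lipid and membrane production. Zinc finger proteins commonly read runs of several bases, and tandem copies of a short unit hold many such sites side by side.

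Many kept sites lay on tandem repeats of the 4-base unit TCAT. The sequences below show tracts at kept sites with a low peak-name number or a great length, beside a few near genes of interest. A low number means a low mean over both lists of the percentile rank within the chromosome. They were read from GRCm38 on the strand where the unit reads TCAT, with 25 bases to each side of the longest tract, and capitals mark every tract of at least 12 bases in which TCAT repeats without a break. The second tract of the Sdc3 line runs past the end of both peaks and is not counted as a tract of that pair. The first capitals of the Scnn1a line are the end of a tract that starts outside the window.
Celf1 promoter: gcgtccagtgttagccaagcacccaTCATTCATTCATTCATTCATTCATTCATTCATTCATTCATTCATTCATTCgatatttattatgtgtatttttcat
Vgf promoter: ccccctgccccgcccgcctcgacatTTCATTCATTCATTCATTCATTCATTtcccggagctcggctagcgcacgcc
Ahi1 promoter: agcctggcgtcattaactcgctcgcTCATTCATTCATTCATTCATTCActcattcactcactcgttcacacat
Kcnj10 intron: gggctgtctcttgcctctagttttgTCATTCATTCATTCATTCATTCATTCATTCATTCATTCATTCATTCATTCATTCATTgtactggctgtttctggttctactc
Srpk2 intron: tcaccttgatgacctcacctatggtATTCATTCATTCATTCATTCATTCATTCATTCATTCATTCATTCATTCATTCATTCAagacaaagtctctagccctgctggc
upstream of Ubash3b: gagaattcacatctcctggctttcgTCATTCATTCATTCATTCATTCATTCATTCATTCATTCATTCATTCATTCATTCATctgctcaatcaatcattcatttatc
upstream of Slc17a3: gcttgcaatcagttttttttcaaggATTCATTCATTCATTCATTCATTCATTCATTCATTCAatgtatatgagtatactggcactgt
Sdc3 intron: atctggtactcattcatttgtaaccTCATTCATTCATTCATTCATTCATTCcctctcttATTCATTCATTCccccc
Scnn1a intron: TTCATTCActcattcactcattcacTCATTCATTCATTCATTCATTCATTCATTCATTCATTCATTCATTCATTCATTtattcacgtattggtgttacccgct
downstream of Cryaa: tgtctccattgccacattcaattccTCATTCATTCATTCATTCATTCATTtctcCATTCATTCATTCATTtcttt
Rasgef1c intron: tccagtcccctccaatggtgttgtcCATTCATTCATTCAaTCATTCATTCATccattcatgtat
downstream of Sox21: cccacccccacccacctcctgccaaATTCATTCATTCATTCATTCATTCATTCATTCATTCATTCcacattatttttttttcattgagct
upstream of Sox10: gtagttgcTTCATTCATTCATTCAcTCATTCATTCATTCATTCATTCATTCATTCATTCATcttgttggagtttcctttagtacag
upstream of Mir219a-2: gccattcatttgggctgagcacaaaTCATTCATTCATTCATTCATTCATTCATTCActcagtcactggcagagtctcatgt
The Celf1 tract runs 50 bases without a mismatch (chr2:90940027-90940126, plus strand), and the Kcnj10 (chr1:172351108-172351214, plus strand) and Srpk2 (chr5:23627838-23627944, minus strand) tracts, at 57 bases, were the longest among the kept sites. In the Rasgef1c site (chr11:49938951-49939014, plus strand) 1 base, an a, parts a tract of 14 bases from the next tract, and in the site upstream of Sox10 (chr15:79202176-79202261, plus strand) 1 base, a c, does the same. The Cryaa site (chr17:31766618-31766692, minus strand) has a spacer of 4 bases. Of the 105 pairs with a tract in the bases covered by either peak, 22 held more than 1 tract, and in 11 of these the gap between tracts was at most 4 bases. The other sites shown are Vgf (chr5:137030016-137030091, plus strand), Ahi1 (chr10:20952337-20952409, plus strand), Ubash3b (chr9:41274403-41274508, plus strand), Slc17a3 (chr13:23833094-23833180, minus strand), Sdc3 (chr4:130804627-130804702, plus strand), Scnn1a (chr6:125331280-125331382, minus strand), Sox21 (chr14:118229657-118229746, plus strand) and the site upstream of the miR-219a-2 gene (chr2:29855041-29855121, minus strand). The sites near Sox10, Sox21 and Mir219a-2 were picked for display after their values were seen.

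The other common kind of kept site was a GC-rich promoter with no such tract. For these the bases that the OPC and OLG peaks share are shown, on the strand of the gene, for the genes of the lists used below whose shared bases hold no exon in RefSeq. Capitals mark GGGCGG or its complement CCGCCC, a hexamer common in mammalian promoters that SP and KLF factors read.
Gabra2: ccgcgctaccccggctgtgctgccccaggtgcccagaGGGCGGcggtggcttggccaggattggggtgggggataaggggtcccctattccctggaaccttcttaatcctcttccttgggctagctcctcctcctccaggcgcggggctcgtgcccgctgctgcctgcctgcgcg
Kcnd2: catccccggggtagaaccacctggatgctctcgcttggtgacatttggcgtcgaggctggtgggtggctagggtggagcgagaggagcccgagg
Braf: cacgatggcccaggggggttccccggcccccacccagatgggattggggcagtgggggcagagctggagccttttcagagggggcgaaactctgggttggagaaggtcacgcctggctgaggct
Eef1a1: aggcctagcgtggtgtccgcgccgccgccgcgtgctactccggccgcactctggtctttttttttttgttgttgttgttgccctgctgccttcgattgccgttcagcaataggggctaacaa
Hmga2: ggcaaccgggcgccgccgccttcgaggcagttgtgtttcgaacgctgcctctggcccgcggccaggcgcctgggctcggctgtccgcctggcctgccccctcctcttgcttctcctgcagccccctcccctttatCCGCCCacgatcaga
The GC content of these 5 stretches was 69.1% for Gabra2 (chr5:71095917-71096091, minus strand), 64.9% for Kcnd2 (chr6:21214702-21214795, plus strand), 66.9% for Braf (chr6:39724807-39724930, minus strand), 57.4% for Eef1a1 (chr9:78481336-78481457, minus strand) and 70.7% for Hmga2 (chr10:120477042-120477191, minus strand). The hexamer was present once in the Gabra2 and Hmga2 stretches and not in the other 3. No stretch holds a TCAT tract.

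Sorted by where the OPC peak lay and whether a tract of at least 12 bases lay within 100 bp of its centre, the 254 pairs fell into 4 classes. A site was called promoter where a protein-coding transcript (GENCODE M21 basic) began no more than 1 kb from its centre, and distal otherwise. Promoters without a tract were the most common class with 129 pairs (50.8%), followed by distal sites with a tract with 77 pairs (30.3%), distal sites without a tract with 30 (11.8%) and promoters with a tract with 18 (7.09%). In all, 147 sites were at promoters and 107 were distal, and 95 had a tract and 159 had none. The classes differ in base composition: within 100 bp of the OPC centre, the GC content had a median of 68.5% at promoters without a tract, 50.25% at promoters with one, 43.5% at distal tracts and 53.25% at other distal sites. The ratio of observed to expected CpG, which is near 1 in CpG islands that escape methylation, had medians of 0.858, 0.606, 0.171 and 0.372 in the same order.

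Tracts set the kept sites apart from the sites listed in only 1 cell type, at promoters and away from them. Of the kept distal sites, 77 of 107 OPC peaks (72.0%, exact 95% interval 62.5 to 80.2) held a tract, against 448 of 2890 distal peaks found in OPC only (15.5%, 14.2 to 16.9), an odds ratio of 14 (8.93 to 22.3; exact p = 9.56e-37). Among pairs taken from the lower-numbered 50% of each list, by the number in the peak's name, that odds ratio was 6.93 (exact p = 1.76e-15). This and every p given below for shares of peaks come from Fisher's exact test and are two-sided. At promoters the shares were 18 of 147 (12.2%) and 24 of 1499 (1.60%), with an odds ratio of 8.55 (4.25 to 16.9; exact p = 2.61e-09). The promoter odds ratio was 9.35 (exact p = 3.76e-09) among pairs from the lower-numbered 50% of each list. It was 14.4 (exact p = 1.71e-12) where kept pairs were limited to centres within 100 bp. On the OLG side a tract was in 59 of 106 kept distal peaks (55.7%) and 18 of 808 OLG-only distal peaks (2.23%), and in 21 of 148 kept promoter peaks (14.2%) and 2 of 690 OLG-only ones (0.290%), with odds ratios of 54.4 (29.0 to 106) and 56.5 (13.5 to 503; exact p = 3.60e-47 and 8.20e-15). All 4 held after Benjamini-Hochberg adjustment over the 4 tests, the largest adjusted p being 2.61e-09. These tests compare peaks of 1 list from 1 library with each other. They say nothing about the spread between animals or cultures, which no replicate measures, and the intervals cover counting error over peaks only.

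**Figure D1:**
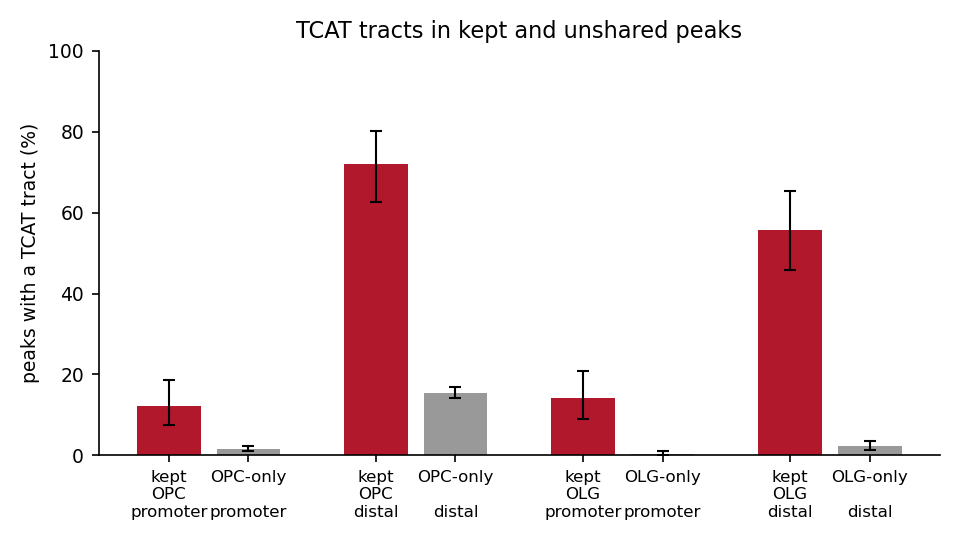
Share of peaks with a TCAT tract of at least 12 bases within 100 bp of the centre (%, vertical axis), for kept peaks (red) and peaks of 1 list only (grey), promoters and distal sites apart; bars start at 0 and error bars are exact 95% intervals over peaks. The kept distal peaks stand at 72.0% in the OPC list and 55.7% in the OLG list, each above the grey bar beside it.

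Seen from the side of the tract, most tract-bearing OLG peaks had an OPC partner. Of the 100 OLG peaks with a tract, 80 (80.0%, exact 95% interval 70.8 to 87.3) were kept, against 174 of 1652 without one (10.5%, 9.09 to 12.1), while the 567 OPC peaks with a tract were kept in 95 cases (16.8%, 13.8 to 20.1) and the 4076 without one in 159 (3.90%, 3.33 to 4.54). At promoters 21 of the 23 OLG peaks with a tract were kept (91.3%, 72.0 to 98.9). At the other end, only 30 of 2472 distal OPC peaks without a tract were kept (1.21%, 0.820 to 1.73), against 129 of 1604 promoter peaks without a tract (8.04%, 6.76 to 9.48). So a promoter position and a tract each went with a higher kept share, and the 42 OPC peaks with both were kept in 18 cases (42.9%, 27.7 to 59.0).

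Among peaks with a tract, no difference in tract length between kept and unshared peaks was detected. The kept share of OPC peaks was 18.2% for tracts of 12 to 15 bases, 20.5% for 16 to 23, 18.7% for 24 to 31, 11.8% for 32 to 47 and 25% for 48 or more, and the intervals of these 5 groups overlap. In the OLG list the shares were 76.2%, 73.3%, 78.8%, 82.6% and 100% (8 of 8 peaks, exact 95% interval 63.1 to 100). Tracts of at least 24 bases made up 67.4% of the tract-bearing kept OPC peaks and 72.7% of the tract-bearing OPC-only peaks, an odds ratio of 0.777 (0.473 to 1.29; exact p = 0.318). For the OLG list the odds ratio was 1.60 (0.517 to 4.85; exact p = 0.436). Both intervals include 1 and allow a difference of either sign.

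**Figure D2:**
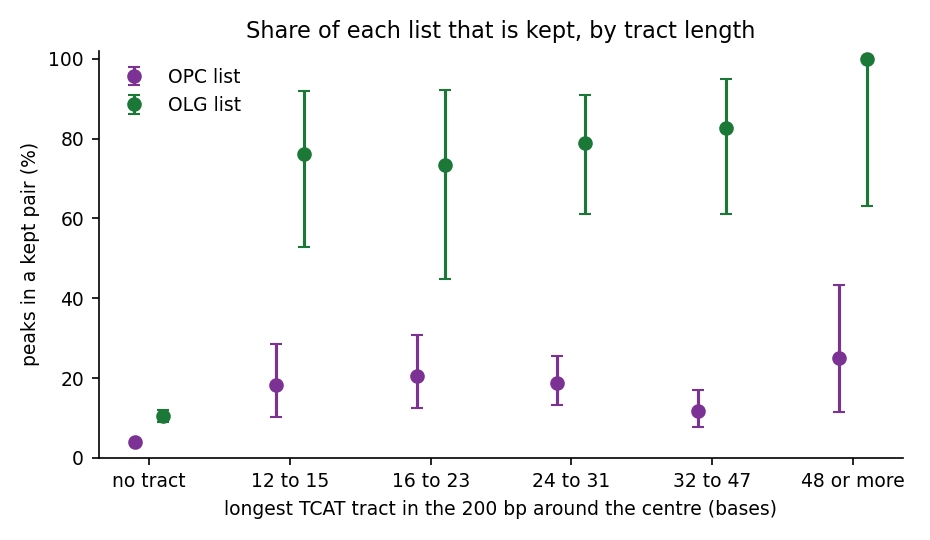
Share of peaks that belong to a kept pair (%, vertical axis) by the length in bases of the longest TCAT tract near the peak centre, for the OPC list (purple) and the OLG list (green), with exact 95% intervals. The step is between no tract and the shortest tracts: from 3.90% to 18.2% in the OPC list and from 10.5% to 76.2% in the OLG list.

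Kept sites were also more often at promoters than the rest. The share was 57.9% of kept OPC peaks (147 of 254, exact 95% interval 51.5 to 64.0) and 34.2% of OPC-only peaks (1499 of 4389), an odds ratio of 2.65 (2.03 to 3.46; exact p = 7.63e-14). In the OLG list it was 58.3% (148 of 254) against 46.1% (690 of 1498), an odds ratio of 1.63 (1.24 to 2.16; exact p = 3.97e-04). Among pairs taken from the lower-numbered 50% of each list, the OPC odds ratio was 1.45 (exact p = 0.0212) and the OLG one turned to 0.762 (exact p = 0.121). The number in a peak's name is the only order the files give, and its meaning is not stated in the sources used here. Kept peaks were concentrated at low numbers, with 14%, 4.47%, 1.64% and 1.88% of the OPC peaks kept from the lowest to the highest 25% of each chromosome's numbers, and 33.5%, 12%, 8.29% and 4.70% of the OLG peaks.

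By annotation, 112 of the 254 kept OPC centres lay in introns of protein-coding genes (44.1%), 63 in intergenic sequence (24.8%), 33 in coding exons (13.0%), 31 in 5' untranslated regions (12.2%), 9 in introns of non-coding genes (3.54%) and 5 in exons of non-coding transcripts (1.97%). Coding exons held more of the kept sites than of the OPC-only sites (7.61%), with an odds ratio of 1.81 (1.20 to 2.67; adjusted p of the exact test = 0.0456 over 12 location tests), and the other 11 tests did not pass. That 1 call was lost when pairs were limited to centres within 100 bp and when only lower-numbered peaks were used. The pairs were spread over all 20 chromosomes with peaks, from 1 on chromosome X to 29 on chromosome 2.

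Within a pair, the OLG peak was centred close to the OPC peak but seldom on it. The distance between centres had a median of 72 bp (95% interval of the median 59 to 81), quartiles of 35 and 114.8 bp and a range of 0 to 214 bp, where 214 bp is the most that 2 peaks of 209 and 221 bp can be apart and still share a base. The OLG centre was at the higher coordinate in 128 pairs, at the lower in 124, and the centres were equal in 2. Centres lay within 25 bp of each other in 46 pairs (18.1%, exact 95% interval 13.6 to 23.4) and within 50 bp in 98 (38.6%, 32.6 to 44.9). Relative to the nearest gene, the OLG centre was further downstream in 123 pairs and further upstream in 129. The counts in the 2 directions were close to equal.

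Pairs on a tract had the smaller median distances between centres. The median distance between centres was 29.5 bp at promoters with a tract (range 5 to 99), 54 bp at distal tracts (0 to 206), 79 bp at promoters without a tract (0 to 198) and 89.5 bp at distal sites without one (2 to 214), and the classes overlapped. Centres were within 25 bp in 25 of 95 pairs with a tract (26.3%, 17.8 to 36.4) and 21 of 159 without (13.2%, 8.37 to 19.5), an odds ratio of 2.34 (1.17 to 4.73; exact p = 0.0113, adjusted p = 0.0189 over 5 tests). This call did not hold in most alternatives. In 5 of them the odds ratio was between 1.76 and 1.94 with exact p from 0.0679 to 0.174. It held with the lower-numbered 50% of each list, with tracts of at least 16 bases and for centres within 50 bp. Promoter and distal pairs were within 25 bp in 17.0% and 19.6% of cases, an odds ratio of 0.840 (0.421 to 1.69; exact p = 0.623).

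**Figure D3:**
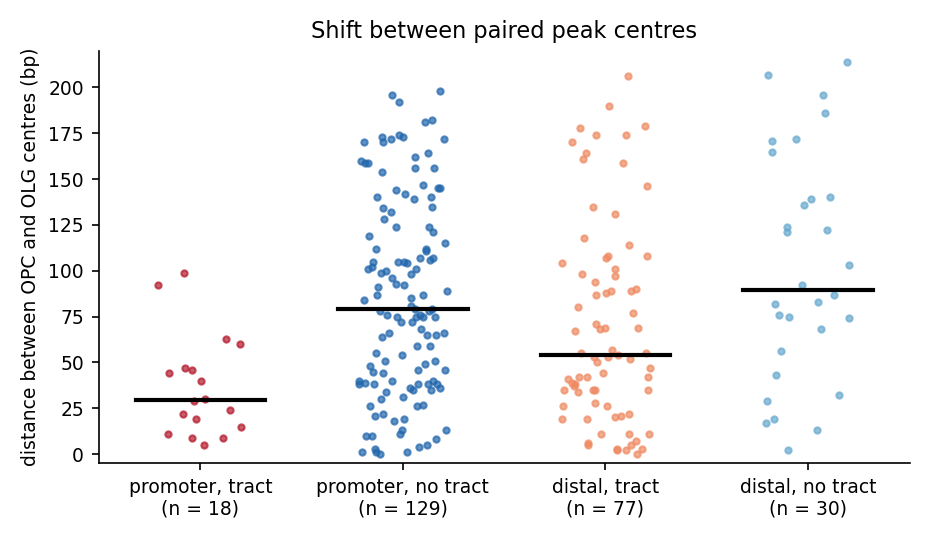
Distance in bp between the OPC and OLG peak centre of each kept pair (vertical axis) in the 4 classes; each point is 1 pair and the black lines are medians, at 29.5, 79, 54 and 89.5 bp from left to right. The promoter pairs with a tract all lie under 100 bp, and the other 3 classes reach to 198 bp or more.

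The closest promoter pairs show how near the calls could come. At Ylpm1, which codes for a nuclear protein phosphatase 1 partner, the 2 centres were the same base, 5 bp after the transcript start. The centres were 1 bp apart at Exosc8, a subunit of the RNA exosome that trims and degrades RNA (205 and 206 bp after the start), at Tsen54, a subunit of the endonuclease that cuts introns out of transfer RNA (2 and 3 bp before the start), and at Prpf39, a splicing factor of the U1 particle (189 and 188 bp after). They were 3 bp apart at Pex14, part of the import machinery of peroxisomes. None of these 5 has a tract. The farthest promoter pairs were at Galnt1, an enzyme that starts O-linked sugar chains (198 bp), Klhdc4 (196 bp) and Slc33a1, the acetyl-CoA carrier of the endoplasmic reticulum (192 bp).

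Among distal pairs, the centres coincided at a site 100453 bp upstream of Sesn3, a stress-induced sestrin, on a tract of 33 bases. They were 2 bp apart in introns of Sh3bp4 and Jsrp1 and at the Slc17a3 site, and 3 bp apart in an intron of Plpp3, a lipid phosphatase. Of these 5 sites 4 held a tract, of 28 to 42 bases, and the Sh3bp4 site held none. The farthest distal pairs were at Bcl7a, a subunit of SWI/SNF chromatin remodelling complexes (214 bp), at A930004D18Rik (207 bp) and at Hpn (206 bp), and they are the pairs with least overlap, at 1, 8 and 9 shared bases. Just outside the rule stood OPC peaks near Sfswap, where the 2 peaks touched without sharing a base, and near Nup160 and Mcub, with gaps of 2 bp. Galnt1 and Dhx15 were the next inside, with 17 and 19 shared bases, and Zmiz1 and Agpat4 the next outside, with gaps of 5 and 6 bp. In all, 40 OPC-only peaks lay within 100 bp of an OLG peak and 132 within 1 kb.

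Measured against the tract itself, the OPC centre was more often the closer of the 2. In the 105 pairs with a tract in the bases of either peak, 24 of them at promoters and 81 distal, the longest tract had a median of 27 bases (12 to 57). Its middle lay a median of 46 bp from the OPC centre (quartiles 19.5 and 82.5, range 0.5 to 167.5) and 63.5 bp from the OLG centre (quartiles 30.5 and 103, range 0 to 299.5). The OPC centre was nearer in 65 of the 103 pairs where the distances differed (63.1%, exact 95% interval 53.0 to 72.4) and the OLG centre in 38. The centre fell inside the tract in 20 pairs for OPC and 14 for OLG, and the 2 centres were on opposite sides of the tract middle in 31 pairs and on the same side in 73. Counting any tract, and not always the same one, both centres had a tract within 100 bp in 70 pairs. The OPC centre alone had one in 25 and the OLG centre alone in 10. The part that read depth or background in each library had in the placement was not tested.

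**Figure D4:**
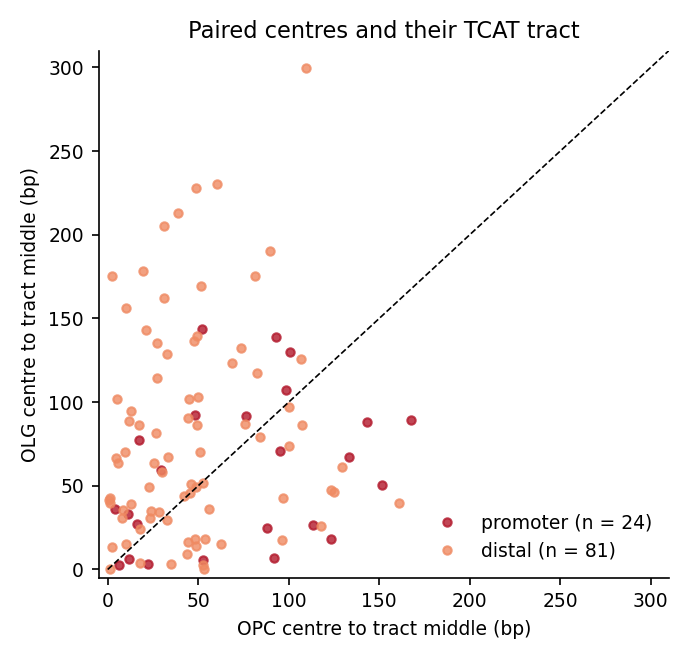
Distance in bp from the middle of the longest TCAT tract to the OPC centre (horizontal axis) and to the OLG centre (vertical axis), 1 point for each of the 105 pairs with a tract, promoters in dark red and distal sites in orange; the dashed line marks equal distances. More points lie above the line (65) than under it (38), and the OPC distances end at 167.5 bp where the OLG distances reach 299.5 bp.

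At promoters, sites with a tract were less often downstream of the transcript start than sites without one, and both kinds occurred on both sides. Without a tract, the OPC centre was downstream of the start in 93 of 129 pairs (72.1%), with a median position of +189 bp and quartiles of -3 and +323 bp. With a tract it was downstream in only 6 of 18 (33.3%), with a median of -332.5 bp, and the nearest centre was 190 bp from the start. The odds ratio was 0.196 (0.0559 to 0.615; exact p = 0.00219, adjusted p = 0.0110 over 5 tests). The OLG centres gave 6 of 18 and 92 of 129 (odds ratio 0.204, exact p = 0.00255), with medians of -310 and +184 bp. They are no separate support, because the overlap rule ties each OLG centre to its OPC centre. In pairs with a tract the shift was at most 99 bp, too small to cross the start from these OPC positions. Taking a tract anywhere in the bases of either peak gave 8 of 24 against 91 of 123 (odds ratio 0.178, exact p = 2.26e-04). The same split was present in the OPC-only promoter peaks, at 10 of 24 (41.7%) with a tract and 1042 of 1475 (70.6%) without (odds ratio 0.297, 0.117 to 0.726; exact p = 0.00533, adjusted p = 0.0133), so the split was found outside the kept sites too. This comparison was chosen after the positions had been seen. Kept and OPC-only promoter peaks as a whole lay downstream in 67.3% and 70.2% (exact p = 0.509), and kept and OLG-only ones in 66.9% and 77.2% (odds ratio 0.596, adjusted p of the exact test = 0.0451 over 4 tests).

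**Figure D5:**
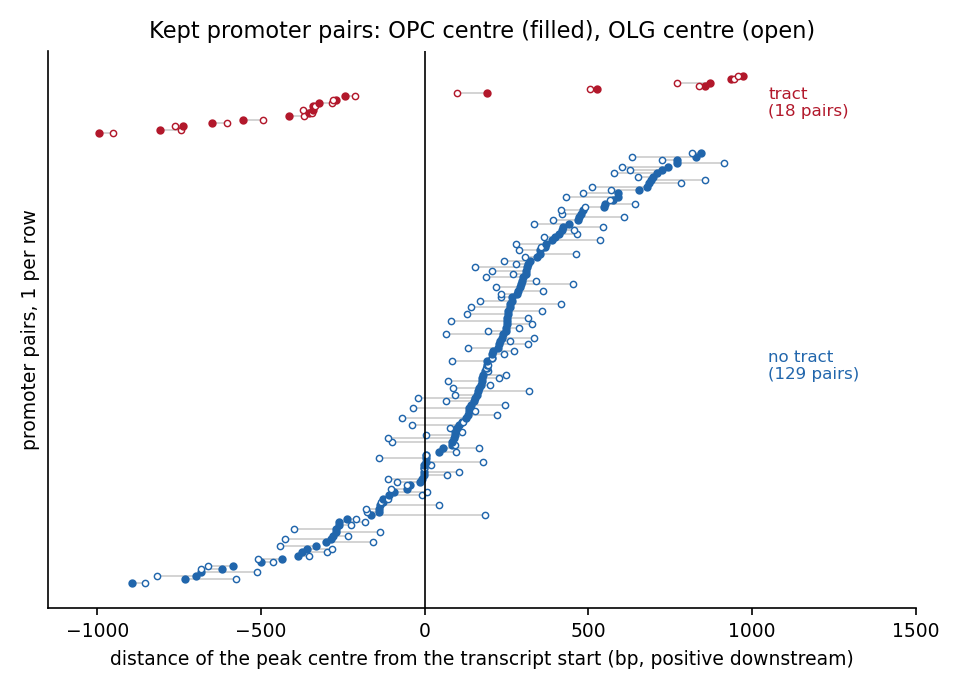
Position of the OPC centre (filled) and OLG centre (open) of each kept promoter pair relative to the nearest protein-coding transcript start (bp, positive downstream), 1 pair per row, sorted by the OPC position, with the 18 pairs on a tract in red above the 129 without in blue. Of the red pairs 12 lie upstream of the start, and of the blue pairs 93 lie downstream; where the 2 centres have different nearest starts, the line is not the distance between them.

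Paired centres rarely fell on opposite sides of their nearest start: this was so in 13 promoter pairs, all of them without a tract. Of the 24 promoter tracts in the bases of either peak, 11 read TCAT on the coding strand of the nearest gene and 13 on the other. Start pairs that point away from each other (divergent genes) held 10 of the 147 kept OPC promoter sites (6.80%) and 8.81% of the OPC-only ones, an odds ratio of 0.756 (0.346 to 1.48; exact p = 0.537).

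For the motifs of common promoter factors, kept promoters differed from the others in few cases. In the 200 bp around the OPC centre, on either strand, the SP and KLF hexamer GGGCGG was in 31.3% of kept and 31.4% of OPC-only promoter peaks, the NF-Y box CCAAT in 12.9% and 14.4%, the ETS site CCGGAAG in 5.44% and 5.87%, the SOX site ACAAAG in 9.52% and 8.87%, and the E-box CACGTG in 6.12% and 4.20%. Windows of the same length at 32851 RefSeq promoters (GRCm38.p6, 150 bases before to 50 after the start) held them in 32.2%, 28.6%, 7.54%, 12.4% and 5.45%. Those windows lie mostly before the start, whereas the kept OPC promoter centres had a median position of +175 bp. Shares of all promoters are thus not matched for position. YY1 (AAGATGGC, 1.36% of kept, 2.07% of all promoters) and AP-1 (TGANTCA, 2.04% and 5.35%) were in few OPC windows, and on the OLG side they were in 3.38% and 2.03% of kept promoter peaks. NRF1 (GCGCATGCG, 1.49% of all promoters), CREB (TGACGTCA, 1.60%), the Kaiso-like CTCGCGAG (0.764%) and the CTCF core CCACTAG (1.89%) were in no kept OPC promoter window of 147, where an exact interval reaches to 2.48%. In the kept OLG promoter windows, NRF1 was in 2 of 148 (1.35%) against 0 of 690 OLG-only ones (exact p = 0.0310, adjusted p = 0.134), the CTCF core was in 1 of 148, and the other 2 were in none. Of 26 tests over both lists 5 passed after adjustment. Of these, 4 were the 2 phases of the repeat, TCATTCAT and CATTCATT, which overlap each other and the tracts: TCATTCAT was in 15.6% of kept and 2.54% of OPC-only promoter peaks, in 14.9% and 0.870% on the OLG side, and in 0.703% of all promoters, and CATTCATT in 17.0%, 2.6%, 15.5%, 1.30% and 0.728% of the same sets. The other was GGGCGG, at 31.1% of kept and 43.2% of OLG-only promoter peaks (odds ratio 0.594, 0.397 to 0.879; adjusted p of the exact test = 0.0388). A match is a run of letters and not a bound site.

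The kept sites reached few genes. A kept pair, with both centres within 10 kb of a transcript start, was assigned to 229 of 21703 protein-coding genes (1.06%). For comparison, 2765 genes had an OPC peak in that range (12.7%) and 1404 an OLG peak (6.47%). The lists had 458 genes in common, and for 229 of these the 2 peaks were at different places, so that the gene was shared and the site was not. Of the kept genes, 159 had the site within 1 kb of a start of their own. For the other 70 it lay further off, at a distal site for 47 and at the promoter of a neighbouring gene for 23. Of the 254 pairs, 137 had 1 gene, 43 had 2, 3 had more, and 71 had none, all of them distal. Among these 71 pairs, 15 were over 100 kb from a start. Non-coding genes were near many of the same sites: 113 had a kept pair within 10 kb, and 4 distal sites lay at the start of a non-coding transcript, among them Snhg17 (63 bp upstream) and Gm11915 (66 bp upstream). Their expression was not measured.

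The 18 promoter sites with a tract were at genes of varied roles. Besides Celf1, an RNA-binding protein that controls splicing and decay (tract of 50 bases, OPC centre 324 bp and OLG centre 284 bp before the start), they included Vgf, a secreted neuropeptide precursor (26 bases, 342 and 371 bp before), and Ahi1, a ciliary transition zone protein (23 bases, 272 and 281 bp before). The tracts given for Vgf and Ahi1 counted within 100 bp of the OPC centre only. Near the OLG centre, Vgf had another tract of 15 bases and Ahi1 had none. Trp73, a transcription factor of the p53 family, had a tract of 37 bases at 996 and 952 bp before its start, near the 1 kb limit. Calm3, 1 of the genes for the calcium sensor calmodulin, had 24 bases at 738 and 762 bp before. The closest pair of this class was at Dcbld1, 25 bases long with centres 5 bp apart, and Tfg, a protein of endoplasmic reticulum export, had 20 bases with centres 11 bp apart. Jak2, the kinase of cytokine receptors, had a short tract of 12 bases and centres 650 and 604 bp before the start, with the tract near the OPC centre only. Sulf2, which trims sulfate from heparan sulfate chains, and Castor2, a relative of the arginine sensor of mTOR signalling, had theirs at 973 and 871 bp after the start by the OPC centre. These genes were picked for mention after their values were seen.

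Of the genes on 20 lists of pathways and cell types, 26 of 1234 had a kept pair (2.11%), beside 1.06% of all genes, and 7 lists had none. Most of these lists were also above all genes in the share with any OPC peak (12.7% of all genes) and with any OLG peak (6.47%). A higher share on the lists was thus not particular to kept sites. The lists were written with earlier results of these data known, so the shares are given as a description. The ion channel list had the highest share, 7 of 76 (9.21%), against 17.1% with any OPC peak and 22.4% with any OLG peak. They included Cacna1c, the pore subunit of an L-type calcium channel (OPC and OLG centres 14 and 84 bp before the nearest start), Gabra2, a subunit of the GABA-A receptor (138 and 178 bp before), Kcnd2, an A-type potassium channel (697 and 818 bp before), and Kcnn2, a calcium-activated potassium channel (501 and 462 bp before), all at promoters without a tract. Distal and on tracts were Kcnj10, the Kir4.1 potassium channel of glia, in its intron 9902 bp after the start, and Cacna2d3, an accessory calcium channel subunit, 1847 bp before its start on a tract of 31 bases. At Kcnj10 the tract of 57 bases was within 100 bp of both centres, which were 37 bp apart. At Cacna2d3 the centres were 161 bp apart and the tract was near the OPC centre only. With a window of 2 kb in place of 10 kb, 4 of the 7 remained.

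Axon guidance and adhesion genes had a kept pair in 3 of 79 (3.80%): Cdh2, which codes for N-cadherin (351 and 463 bp after the start), Sema3d, a secreted semaphorin (44 and 54 bp before, centres 10 bp apart), and Epha7, an ephrin receptor, with a distal site in its intron 1892 and 1966 bp after the start. The ubiquitin list had 3 of 84 (3.57%), namely Ube2n, an enzyme that builds ubiquitin chains used in signalling, on a tract of 13 bases, the ligase Ube3a, and Usp10, a deubiquitinase whose OPC and OLG centres lay 165 bp before and 184 bp after their nearest starts. The splicing and RNA-binding list had 3 of 99 (3.03%), among them Celf1 and Cpsf7, a subunit of the cleavage factor for polyadenylation (282 and 234 bp after). Growth factor signalling had 2 of 63 (3.17%): Braf, a kinase of the MAP kinase cascade (552 and 643 bp after), and Pik3r1, the regulatory subunit of PI3-kinase (231 and 261 bp after). Of the genes named here, all except Celf1 and Ube2n were without a tract at the OPC centre.

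On the list of lineage regulators 1 of 55 had a kept pair (1.82%, beside 1.06% of all genes): Zeb2, a repressor that oligodendrocytes need to differentiate, with centres 311 and 207 bp after the start. In the same list 34.5% of the genes lay within 10 kb of an OPC peak and 14.5% within 10 kb of an OLG peak, beside 12.7% and 6.47% of all genes. The lipid synthesis list had 1 of 52 (1.92%), Cers2, the synthase of the very long chain ceramides that myelin lipids are built on (262 and 416 bp after the start). None of 40 myelin genes, 30 progenitor markers and 66 genes of Notch, Wnt and BMP signalling had a kept pair, although 10%, 26.7% and 25.8% had a peak in the OPC list and 7.50%, 6.67% and 13.6% in the OLG list. Lists with 1 kept gene were cell cycle (Cdc25c, 8027 bp from a site that lies at a neighbouring promoter), chromatin (Hmga2), translation (Eef1a1), membrane traffic (Snx27), cytoskeleton (Rock1) and neuron markers (Nefl). Mitochondrial genes (0 of 77) and the markers of astrocytes (0 of 20), microglia (0 of 20) and vascular cells (0 of 23) had none. At the share of all genes, 1.06%, each of these lists without a kept pair would be given less than 1 gene, so a count of 0 is near the background.

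By gene symbol families, and beside 1.06% of all genes, zinc finger genes named Zfp, Zkscan or Zscan had 5 of 465 (1.08%: Zfp532, Zfp646, Zfp668, Zfp775 and Zfp827), solute carriers 4 of 385 (1.04%) and potassium channels named Kcn 3 of 94 (3.19%). Cytosolic ribosomal protein genes had 0 of 82, a count near that background, with 23 near an OPC peak and 10 near an OLG one. Sox genes had 1 of 19 (Sox21, whose site lies 7341 bp after the start). The only genes with 2 kept pairs were Galnt1 and the neighbours Dzip3 and Cip2a. The 2 Dzip3 sites lay 856 and 252 bp after the start by the OPC centre, the first on a tract of 13 bases with centres 19 bp apart, the second without a tract and with centres 172 bp apart.

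Over all 21703 protein-coding genes, the distance from a start to the nearest kept OPC centre had a median of 2679775 bp and quartiles of 944606.5 and 7135330 bp, against which the distances of single lineage genes can be read. For Sox10, the transcription factor that maintains oligodendrocyte identity and drives myelin genes, a kept pair on a tract of 36 bases lay 37025 bp upstream of its nearest start, within the intron of a non-coding transcript. The OPC centre there was 46 bp and the OLG centre 51 bp from the tract middle, on opposite sides, and the nearest protein-coding start was that of Pick1, 26908 bp away. The distance to the nearest kept pair was 184531 bp for Zfp24 itself, 284800 bp for Myrf, 765578 bp for Mog and 772670 bp for Cspg4, and from 3557144 bp (Cnp) to 16893828 bp (Mbp) for Cnp, Pdgfra, Olig1, Olig2 and Mbp. Another distal pair, singled out after its position was seen, lay 9478 bp upstream of Mir219a-2, a gene for the microRNA miR-219 that promotes oligodendrocyte differentiation. Its tract of 31 bases was 47.5 bp from the OLG centre and 123.5 bp from the OPC centre, so that it counts as a site without a tract by the OPC window. No contact between these sites and the genes was measured.

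Besides Celf1 and Kcnj10, the 10 longest kept tracts lay in introns of Srpk2, a kinase of splicing factors (57 bases, centres 114 bp apart), of Eif4g3 (53 bases) and of Scnn1a, an epithelial sodium channel subunit (53 bases), 116338 bp from Ubash3b (56 bases), 68248 bp from Arhgef10l (54 bases) and 9403 bp from Ier5l (49 bases, centres 7 bp apart). At Gpr18 (47 bases) and Socs3 (43 bases) the tract was within 100 bp of the OPC centre and not of the OLG centre, and the centres were 190 and 89 bp apart. Pairs were also ordered by peak-name number, as the mean over both lists of the percentile rank within the chromosome. Of the 10 pairs with the lowest mean rank, 9 had a tract within 100 bp of the OPC centre, at Celf1, Rasgef1c, Vgf, Sdc3, Kcnj10, Ahi1, Cryaa, Slc17a3 and Scnn1a. The 1 without was the promoter of Zfp668, where the centres were 5 bp apart. Within 100 bp of the OLG centre, Rasgef1c and Ahi1 had no tract either. Sdc3 codes for a heparan sulfate proteoglycan of the nervous system, and its pair, 12044 bp into the gene, had centres 5 bp apart on a tract of 26 bases.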

How the data were processed

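The 2 deposited peak lists give chromosome, start, end and a name, with no score or tag count, so library depth is unknown and no value has an interval that needs depth. The tools named in the submitters' processing notes are BWA, without a version, and HOMER 4.8.3, with the build mm10, and reads were 75 nt per the labels' protocols. The sources used here do not give the calling threshold or the use of null and input libraries in calling. Every OPC peak is 209 bp wide and every OLG peak 221 bp.

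Peaks were paired by an overlap of at least 1 base and compared with GENCODE M21 basic, GRCm38 and RefSeq promoters and exons, on 1-based positions. Peaks run past a chromosome end in 0 cases. Shares have exact (Clopper-Pearson) 95% intervals and were compared by Fisher's exact test, two-sided, with Benjamini-Hochberg adjustment within a family and a threshold of 0.05. Python 3.11.15, numpy 2.4.6, scipy 1.17.1 and matplotlib 3.10.9 were used. The pairing, the tract finder and the share test were checked on simulated data, and the other steps were not. With 1 library per group nothing was tested between cell types. The members, gene lists and tests were chosen with earlier results of these data known. Genes were named where a list member had a kept pair, for the 10 longest tracts, for 2 or more pairs, and for 10 lineage genes. They were also named for the 5 smallest and 3 largest shifts at promoters and at distal sites. The last set was the 10 pairs with the lowest mean rank of the peak-name number within the chromosome. Some genes that the rule names are left out here. Genes named beyond this rule were chosen after their values were seen. Alternatives changed the overlap, promoter, tract, shift and gene window settings or kept the lower-numbered peaks.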

Additional observations from a re-analysis of the deposited data

How the results depend on the processing

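No paired analysis was possible because each group has 1 library and the deposited values are peak positions. Of 92 alternative values for 20 results, 71 stayed within their limits. Promoters within 500 bp held 44.5% of kept OPC peaks. With centres within 100 bp, the tract share was 44.1%, the median shift 42.50 bp, the share within 25 bp 27.1%, and there were 152 genes and 17 listed genes. With an overlap of at least 50% the shift was 46.50 bp and the share within 25 bp 24.7%. With the lower-numbered 50% of each list, the tract share was 45.4%, 152 genes remained in reach, and the odds ratio for promoters against OLG-only peaks reversed to 0.762 (Fisher's exact p = 0.121). Tracts of at least 24 bases were in 25.2%. A window of 50 kb gave 523 genes and 44 listed genes. The coding exon call fell to 0 calls of 12 tests under both the 100 bp and the lower-numbered setting. The odds ratio for centres within 25 bp, tract against none, lost its call at 1.83 (50% overlap, p = 0.0869), 1.76 (centres within 100 bp, p = 0.119), 1.77 (24 bases, p = 0.132), 1.94 (10 bp, p = 0.174) and 1.90 (tract anywhere in the pair, added after the data were seen, p = 0.0679), all by Fisher's exact test. The cause was not tested, and fewer pairs enter some settings. Without counts or scores, what read depth limits cannot be measured, and background at the kept sites is unknown.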
